A study of Homo sapiens with 39 samples.

Results

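The 40 genes described here are the transcription factor ATF4 and genes of its amino acid response, taken by name out of 63187 genes counted. The rule uses no measured value, but the list was drawn up with earlier results of these data known. By role they comprise 6 transcriptional regulators, 3 stress effectors, 2 secreted factors with 1 lipoprotein receptor, 10 enzymes of amino acid synthesis, 6 amino acid transporters and 12 cytosolic tRNA synthetases. ATF4 itself lies at chr22:39519695-39522683 (GRCh38, plus strand). All 40 were found in the count table, and all 40 passed the filter on low counts in both experiments, FGF21 with few counts. After 5 days of treatment most of them were lower with abiraterone, olaparib, talazoparib and both drug combinations, while with enzalutamide 19 were lower (26.3% of all genes tested were lower), 7 higher (27% of all genes) and 14 did not pass the test. In the olaparib time course, 1 µM for 1 day gave 3 lower (9.52% of all genes tested were lower) and 11 higher (6.30%), and 5 µM gave 25 lower (23.4%) and 8 higher (21.6%). After 5 days, 1 µM gave 37 lower (22.9%) and 2 higher (23.4%), and 5 µM gave 35 lower (33.9%) and 5 higher (34.4%). These counts include the sparse FGF21. Without it, 7 were higher with 5 µM for 1 day, and 36 (1 µM) and 34 (5 µM) were lower after 5 days.

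RNA was sequenced from C4-2B, an established castration-resistant prostate cancer cell line, so every value describes 1 line grown in RPMI medium with fetal bovine serum. The 5-day panel holds 7 groups of 3 libraries. They were given the vehicle DMSO, 5 µM Abiraterone Acetate, 20 µM Enzalutamide, 1 µM Olaparib, 10 nM Talazoparib, or a pair at the doses of its single drugs (abiraterone with olaparib, enzalutamide with talazoparib). A separate time course holds 6 groups of 3 libraries: DMSO, olaparib at 1 µM and olaparib at 5 µM, each at day 1 and day 5. Abiraterone blocks androgen synthesis through CYP17A1 and enzalutamide blocks the androgen receptor (together ARPi), and olaparib and talazoparib inhibit PARP enzymes (PARPi).

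ATF4 is the main effector of the integrated stress response. When amino acids run short or another stress acts, 1 of a set of kinases phosphorylates eIF2, bulk translation falls, and the ATF4 mRNA is translated more through its upstream open reading frames. ATF4 then binds C/EBP-ATF response elements, often with a C/EBP partner, and raises genes that import amino acids, make serine, asparagine and proline, and load amino acids onto tRNAs. ATF4 mRNA is itself regulated, but much of ATF4 control is translational, and protein was not measured in these files.

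The core letters of that response element, TGATGNAA, were searched on both strands of the RefSeq promoter windows (GRCh38.p14, 250 bases before to 50 after each start site), because they are the sequence that these genes are known to share. Of the members, 34 had a window, and 16 of these (47.1%) held the core, against 1217 of 27305 genes with a window (4.46%) and 3.62% of 35116 windows. The related cAMP response element letters TGACGTNA, which differ from the core at the fourth letter so that no stretch matches both in the same register, were in 1 member (ALDH18A1, 2.94%), against 3.63% of genes and 3.01% of windows. A match is a description of letters and not a measured binding site. The 16 stretches follow, each read on the strand that spells TGATGNAA with the core in capitals and with the genome strand printed.
ATF3, chr1:212565205-212565234, plus strand: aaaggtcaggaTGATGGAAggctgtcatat
CEBPG, chr19:33374060-33374089, plus strand: cgcgcggcgtcTGATGCAAcctgccggcaa
CHAC1, chr15:40953251-40953280, minus strand: cctggcaggagTGATGCAAcggcaggggag
ASNS, chr7:97872458-97872487, minus strand: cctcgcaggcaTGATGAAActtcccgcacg
FGF21, chr19:48755459-48755488, minus strand: ctcctcctcccTGATGCAAtcctggtgttt
SLC7A1, chr13:29595663-29595692, minus strand: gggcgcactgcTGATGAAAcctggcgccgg
SLC3A2, chr11:62881725-62881748, minus strand: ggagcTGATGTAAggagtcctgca
SLC1A4, chr2:64989381-64989410, minus strand: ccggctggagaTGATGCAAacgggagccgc
SLC1A5, chr19:46784893-46784922, minus strand: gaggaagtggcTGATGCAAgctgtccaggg
AARS1, chr16:70289675-70289704, plus strand: tctaacttggcTGATGCAActgcgagaaaa
CARS1, chr11:3057407-3057436, plus strand: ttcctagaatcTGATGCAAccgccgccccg
GARS1, chr7:30594834-30594863, minus strand: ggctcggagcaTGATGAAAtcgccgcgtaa
IARS1, chr9:92293692-92293721, plus strand: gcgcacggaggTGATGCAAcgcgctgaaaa
MARS1, chr12:57488053-57488082, minus strand: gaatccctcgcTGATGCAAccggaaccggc
NARS1, chr18:57621804-57621833, minus strand: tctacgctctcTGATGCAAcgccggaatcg
TARS1, chr5:33440956-33440985, minus strand: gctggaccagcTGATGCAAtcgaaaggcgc
Of these 16 cores, 11 read TGATGCAA, 12 began before the start site, and their first bases lay between -209 (CHAC1) and 38 (SLC3A2), counted from the start site. The 12 synthetases gave 7 of the 16 stretches. NUPR1, PSPH, SHMT2, PYCR1, LARS1 and YARS1 had no window.

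Library totals lay between 26932205 and 49833473 counts in the panel and between 34214001 and 44893664 in the time course, which makes the counting error of most members small. Replicates of a group differed by more than counting noise, with a chi-square per degree of freedom between 2.11 and 5.63. The labels do not say that replicates were separate cultures, so p-values measure the spread between these libraries, which may be technical. All 10 prostate markers were above 0 in every library. Of 9 markers of leukocytes, endothelium and fibroblasts, CD3E, PECAM1, COL1A2 and DCN never exceeded 4 counts, and at least 1 library was at 0 for 6 of the 9. The summed level of the 9 was 33.2 CPM (counts scaled to library size by TMM) in panel DMSO, 33.2 CPM with enzalutamide, 43.9 CPM with abiraterone and between 40.6 and 49 CPM in the groups with a PARPi, and it ran from 28.4 CPM (DMSO, day 5) to 49.5 CPM (5 µM olaparib, day 5) in the time course. It came mostly from CD68, COL1A1 and VWF, which did not move together. On the log2 scale CD68 was higher with olaparib (1.32) and talazoparib (1.16) and lower with abiraterone (-0.73) and enzalutamide (-1.14). COL1A1 was higher with all 4 single drugs (0.41, 0.25, 0.68 and 0.60 in the same order). VWF was higher with abiraterone (0.45), lower with enzalutamide (-0.35) and talazoparib (-0.20), and did not pass with olaparib (-0.15). PTPRC was called higher with abiraterone and enzalutamide, at means of 0.364 and 0.584 CPM against 0.0253 CPM in DMSO. The part of these markers in the results was not tested. The drugs' known target genes moved: the androgen receptor targets TMPRSS2, KLK2 and KLK3 were lower with enzalutamide (-2.80, -2.85 and -2.25 on the log2 scale) and with abiraterone (-2.44, -2.003 and -1.58). CDKN1A, the p53 target that encodes p21, was higher with olaparib (2.18) and talazoparib (1.98), and also with abiraterone (0.82) and enzalutamide (0.18).

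ATF4 was lower with every panel treatment, least with enzalutamide. Its level in the DMSO libraries was 551, 520.1 and 531 CPM. It was 349, 338 and 346 CPM with abiraterone and 529, 482 and 501 CPM with enzalutamide. The abiraterone libraries lay below all DMSO libraries, whereas the enzalutamide libraries overlapped them. With olaparib it was 323, 324 and 326 CPM and with talazoparib 368, 379 and 385 CPM. It was 245, 247 and 238 CPM with abiraterone and olaparib together and 305, 307 and 302 CPM with enzalutamide and talazoparib together. None of these 4 groups overlapped DMSO, and the lowest 3 libraries of the panel were those of abiraterone with olaparib. The log2 fold changes against DMSO were -0.63 ± 0.028 (SE) for abiraterone, -0.084 ± 0.027 for enzalutamide, -0.72 ± 0.028 for olaparib, -0.50 ± 0.027 for talazoparib, -1.13 ± 0.028 for abiraterone with olaparib and -0.81 ± 0.028 for enzalutamide with talazoparib. The adjusted p-values (edgeR's quasi-likelihood test) were 2.95e-20, 0.00951, 2.33e-20, 4.62e-16, 1.12e-27 and 1.38e-23 in the same order. The enzalutamide call did not hold in several alternatives: its adjusted p was 0.316 with total count scaling, 0.0878 without the filter on low counts, 0.0704 without DMSO replicate A and 0.177 without enzalutamide replicate B. In whole-culture RNA, fewer cells of a type and less RNA per cell cannot be told apart, and this holds for each level given here. The panel comparisons share their DMSO libraries, so their values are set side by side and no agreement between them is counted.

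**Figure D1:**
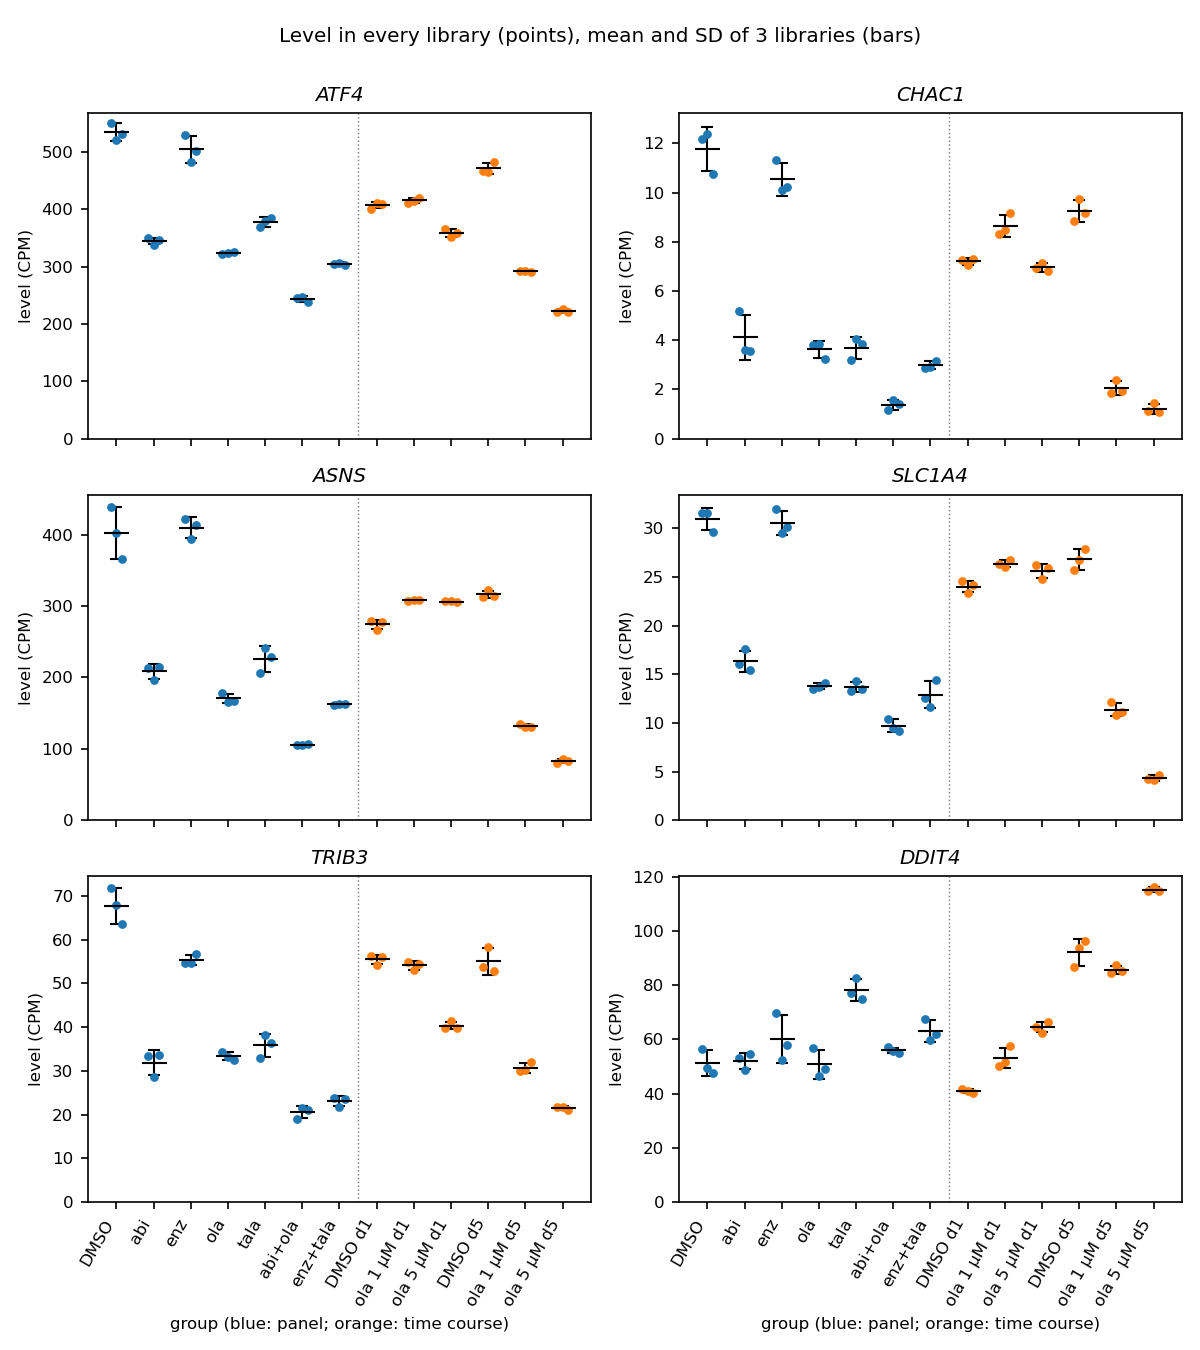
Level of 6 members in every library, in TMM-scaled CPM on axes from 0, by group (blue points, 5-day panel; orange points, time course), with the mean (horizontal bar) and SD of 3 libraries. ATF4, CHAC1, ASNS, SLC1A4 and TRIB3 are lowest of the panel with abiraterone and olaparib together and lowest of the time course with 5 µM olaparib at day 5, and DDIT4 is highest of the panel with talazoparib and of the time course with 5 µM olaparib at day 5.

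With abiraterone 34 of 40 members were lower and 0 higher, and 19 were lower by at least 1.5-fold, against 27.1%, 25.8% and 6.39% of the 18625 genes tested. With enzalutamide 19 were lower and 7 higher, and 1 was lower by at least 1.5-fold, against 26.3%, 27% and 7%. The enzalutamide split was 13 lower and 10 higher with total count scaling and 14 lower and 10 higher without DMSO replicate A. The median log2 fold change of the members was -0.57 with abiraterone and -0.084 with enzalutamide, beside 0.0003 and 0.017 over all genes. Compared directly, 37 members were higher with enzalutamide than with abiraterone and 0 lower, against 9.78% and 10.1% of all genes, with a median difference of 0.47. ATF4 differed between the drugs by 0.55 ± 0.028 (adjusted p = 4.85e-17), CHAC1 by 1.35 ± 0.12 (adjusted p = 1.68e-10) and ASNS by 0.97 ± 0.062 (adjusted p = 1.25e-08).

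With olaparib 34 members were lower, 0 higher and 16 lower by at least 1.5-fold, against 16%, 19.6% and 1.77% of all genes. With talazoparib 33 were lower, 1 (DDIT4) higher and 10 lower by at least 1.5-fold, against 15.4%, 18.4% and 1.42%. The medians were -0.48 and -0.43, beside 0.015 and 0.02 over all genes. The 2 PARPi were given at different doses (1 µM and 10 nM), so their difference is not one of structure at a matched dose. At these doses 16 members were higher with talazoparib than with olaparib and 1 (ATF3) was lower, against 3.11% and 5.25%. Among the members called in this contrast DDIT4 differed most, at 0.62 ± 0.097 (adjusted p = 0.00133), followed by ASNS at 0.41 ± 0.063 (adjusted p = 0.00108). CHAC1 (0.033 ± 0.13) and SLC1A4 (-0.0083 ± 0.069) did not pass the test between the PARPi.

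With abiraterone and olaparib together 36 members were lower, 0 higher and 29 lower by at least 1.5-fold, against 31.1%, 31.1% and 9.71%. With enzalutamide and talazoparib together 36 were lower, 1 (DDIT4) higher and 24 lower by at least 1.5-fold, against 31.3%, 31.2% and 8.95%. The median changes were -1.005 and -0.79, beside 0.0077 and 0.0093 over all genes. Adding olaparib to abiraterone lowered 33 members and raised 1 (ATF3), against 14.7% and 14.4%. Adding talazoparib to enzalutamide lowered 36 and raised 0, against 17.9% and 16.5%.

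**Figure D2:**
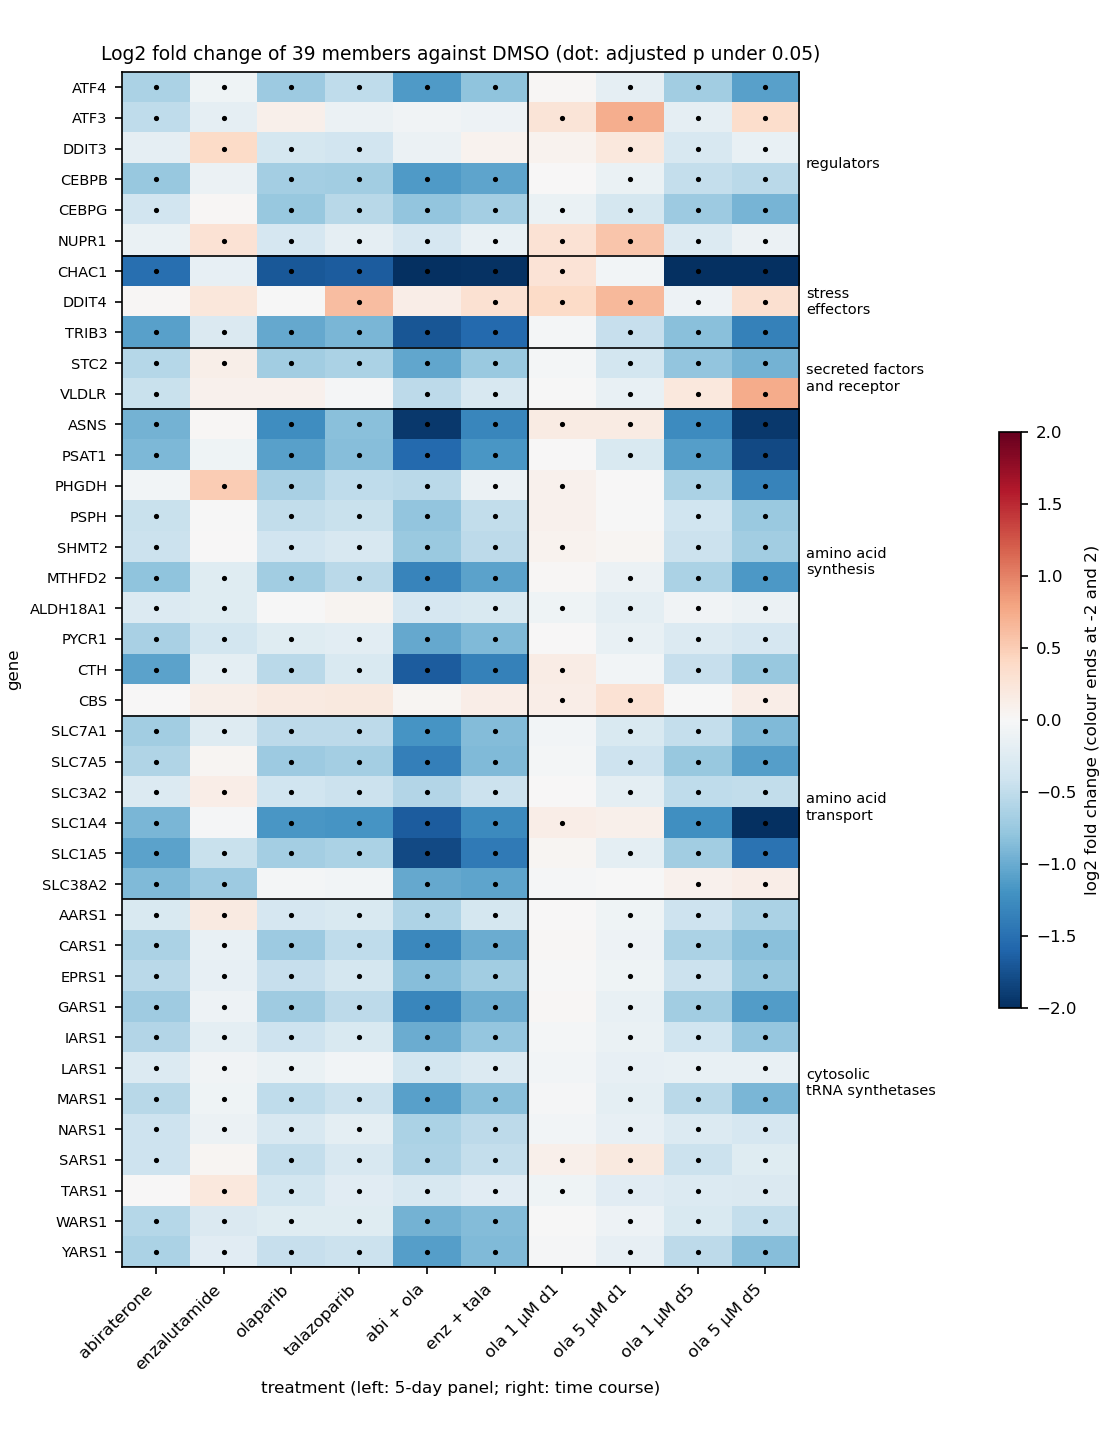
Log2 fold change against DMSO (colour, ending at -2 and 2) of 39 members (rows, by role) in the 6 panel comparisons (left) and 4 time course comparisons (right). A dot marks an adjusted p under 0.05, and FGF21 is left out because its counts are near 0. The enzalutamide and day 1 columns are pale or mixed, and the other columns are mostly blue, with DDIT4, CBS, VLDLR, ALDH18A1 and SLC38A2 among the exceptions.

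Of the regulators, ATF4, CEBPB and CEBPG were lower with abiraterone and with both PARPi, and the stress factors ATF3, DDIT3 and NUPR1 were less uniform. CEBPG, a dimer partner of ATF4, changed by -0.76 ± 0.042 with olaparib and -0.38 ± 0.042 with abiraterone (adjusted p = 3.68e-16 and 1.19e-09). CEBPB, another partner, changed by -0.67 ± 0.08 and -0.75 ± 0.081 (adjusted p = 3.42e-08 and 1.65e-09). DDIT3 encodes CHOP, a pro-apoptotic factor of prolonged stress, and was lower with olaparib (-0.35 ± 0.081, adjusted p = 0.000806) and higher with enzalutamide (0.39 ± 0.077, adjusted p = 5.19e-05). NUPR1, a stress-induced chromatin protein, was also lower with olaparib (-0.34) and higher with enzalutamide (0.28). ATF3, a stress-induced repressor and partner of the family, was lower with both ARPi (-0.50 and -0.18), and with olaparib its value was 0.10 ± 0.06 (adjusted p = 0.207). In the annotation 17 members share exon bases with another gene on either strand, and exons of DDIT3 overlap those of MARS1 on the other strand. The library kit marks strand, but the strand setting of the counting is not given in the sources used here, so reads of the pair may be shared.

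CHAC1, which degrades glutathione, had the largest called change of the members other than the sparse FGF21 in 7 of the 10 comparisons with DMSO. DMSO held 12.2, 12.4 and 10.8 CPM, abiraterone 5.17, 3.59 and 3.57 CPM and enzalutamide 11.3, 10.1 and 10.2 CPM. Olaparib held 3.79, 3.84 and 3.24 CPM, talazoparib 3.19, 4.04 and 3.86 CPM, abiraterone with olaparib 1.17, 1.57 and 1.41 CPM and enzalutamide with talazoparib 2.86, 2.92 and 3.16 CPM. All groups other than enzalutamide lay below every DMSO library, and the enzalutamide range overlapped DMSO. CHAC1 was 2.85-fold lower with abiraterone (-1.51 ± 0.12, adjusted p = 7.92e-13), 3.24-fold lower with olaparib (-1.70 ± 0.12, adjusted p = 2.46e-13) and 3.17-fold lower with talazoparib (-1.66 ± 0.12, adjusted p = 4.66e-13). It was 8.41-fold lower with abiraterone and olaparib (-3.07 ± 0.14, adjusted p = 9.28e-20) and 3.95-fold lower with enzalutamide and talazoparib (-1.98 ± 0.12, adjusted p = 5.11e-16). With enzalutamide it did not pass (-0.16 ± 0.11, adjusted p = 0.242).

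TRIB3, a pseudokinase that feeds back on ATF4, was at 71.8, 67.8 and 63.5 CPM in DMSO. It was at 33.3, 28.7 and 33.6 CPM with abiraterone, 32.8, 38.1 and 36.5 CPM with talazoparib and 23.8, 21.8 and 23.6 CPM with enzalutamide and talazoparib. None of these libraries reached the DMSO range, and the folds were 2.12, 1.88 and 2.93 lower (log2 -1.08 ± 0.058, -0.91 ± 0.056 and -1.55 ± 0.059, adjusted p = 5.63e-16, 1.62e-13 and 6.97e-20). DDIT4, which encodes REDD1, an inhibitor of mTORC1, was higher with talazoparib. It was at 56.6, 49.5 and 47.5 CPM in DMSO, 56.8, 46.5 and 49.2 CPM with olaparib and 77.2, 82.6 and 74.9 CPM with talazoparib. Talazoparib lay above every DMSO library (0.62 ± 0.098, adjusted p = 0.000146) while olaparib overlapped DMSO (-0.0043 ± 0.10, adjusted p = 0.982).

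Of the secreted factors, STC2 (stanniocalcin 2) was lower with olaparib (-0.70 ± 0.045), talazoparib (-0.63 ± 0.044) and abiraterone (-0.58 ± 0.045) and higher with enzalutamide (0.11 ± 0.043, adjusted p = 0.0259). FGF21, an endocrine stress hormone, is near the floor, so its counts are given and no fold. It is 1 of the members counted as lower, and as lower by at least 1.5-fold, in each panel comparison with DMSO other than enzalutamide. Without it, 33 were lower with abiraterone, 33 with olaparib, 32 with talazoparib and 35 with each combination. Those lower by at least 1.5-fold were then 18, 15 and 9 with these single drugs. They were 28 with abiraterone and olaparib and 23 with enzalutamide and talazoparib. Its counts were 16, 12 and 23 in DMSO, 17, 18 and 19 with enzalutamide, 1, 5 and 5 with abiraterone, 1, 3 and 3 with olaparib and 4, 5 and 9 with talazoparib. They were 0, 2 and 0 with abiraterone and olaparib and 1, 0 and 2 with enzalutamide and talazoparib, so only the enzalutamide counts among the treated groups lay in the DMSO range. VLDLR, the lipoprotein receptor of the list, was lower with abiraterone (-0.45 ± 0.074, adjusted p = 3.44e-06), and its values with olaparib (0.081 ± 0.071) and talazoparib (-0.023 ± 0.07) did not pass.

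Most synthesis genes were lower with abiraterone and with the PARPi. With olaparib 8 of 10 were lower (median -0.52), with talazoparib 8 (-0.39), with abiraterone 8 (-0.55), and with enzalutamide 4 were lower and 1 higher (-0.047). Of all genes 16%, 15.4% and 27.1% were lower with those drugs in the same order, and 26.3% were lower and 27% higher with enzalutamide. ASNS, which makes asparagine, was at 438, 402 and 366 CPM in DMSO, 178, 166 and 167 CPM with olaparib and 105, 106 and 107 CPM with abiraterone and olaparib. The treated libraries did not overlap DMSO, and ASNS was 2.35-fold and 3.79-fold lower (-1.24 ± 0.063 and -1.92 ± 0.065, adjusted p = 2.32e-10 and 1.78e-13). With enzalutamide its value was 0.028 ± 0.061 (adjusted p = 0.737).

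The serine branch runs from PHGDH, its first enzyme, through PSAT1 and PSPH, and SHMT2 and MTHFD2 then pass serine carbon into mitochondrial folate metabolism. PHGDH was at 394, 366 and 344 CPM in DMSO and 519, 522 and 523 CPM with enzalutamide, where every library lay above DMSO (0.50 ± 0.031, 1.42-fold higher, adjusted p = 7.57e-16). It was lower with olaparib (-0.65 ± 0.031) and talazoparib (-0.51 ± 0.031), and with abiraterone it did not pass (-0.058 ± 0.031, adjusted p = 0.113). PSAT1 was lower with olaparib (-1.09 ± 0.046), abiraterone (-0.89 ± 0.046) and talazoparib (-0.85 ± 0.046), and with enzalutamide its value was -0.09 ± 0.045 (adjusted p = 0.104). PSPH was -0.49, SHMT2 -0.39 and MTHFD2 -0.69 with olaparib on the log2 scale, all past the threshold. Of these, MTHFD2 was also lower with enzalutamide (-0.23).

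In the other branches, CTH, which makes cysteine from cystathionine, was lower with abiraterone (-1.06 ± 0.073) and olaparib (-0.54 ± 0.069). PYCR1, the last step of proline synthesis, was lower with both ARPi (-0.65 and -0.37) and both PARPi (-0.24 and -0.22). ALDH18A1, the first step of proline synthesis, was lower with the ARPi (-0.28 ± 0.029 and -0.25 ± 0.029), and its values with the PARPi (-0.01 ± 0.029 and 0.05 ± 0.029) did not pass. CBS, which makes cystathionine, passed the test in no panel comparison with DMSO, and its values ran from 0.015 with abiraterone to 0.19 with talazoparib. RefSeq lists a near-identical copy of CBS, so its counts depend on how reads were assigned.

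Of the 6 transporters, 6 were lower with abiraterone (median -0.79), 5 with olaparib (-0.60), 5 with talazoparib (-0.58) and 3 with enzalutamide, where 1 was higher (-0.14). The shares of all genes that were lower were 27.1%, 16%, 15.4% and 26.3% in that order, and 27% were higher with enzalutamide. SLC1A5 carries glutamine and was at 209, 205 and 198 CPM in DMSO, 98.1, 93.9 and 99.0 CPM with abiraterone and 149, 154 and 147 CPM with enzalutamide. It was at 57.4, 57.6 and 60.2 CPM with abiraterone and olaparib and 78.5, 75.1 and 76.1 CPM with enzalutamide and talazoparib. No treated library reached the DMSO range, and the folds were 2.11, 1.36, 3.50 and 2.67 lower in that order (adjusted p = 2.7e-25, 9.3e-15, 1.23e-31 and 5.73e-29). SLC1A4, a carrier of alanine, serine and cysteine, was at 31.6, 31.6 and 29.7 CPM in DMSO, 13.5, 13.7 and 14.2 CPM with olaparib and 13.3, 14.3 and 13.5 CPM with talazoparib. Both PARPi groups lay below DMSO (-1.17 ± 0.065 and -1.17 ± 0.064, adjusted p = 3.54e-16 and 4.62e-16), and enzalutamide did not pass (-0.02 ± 0.06, adjusted p = 0.809).

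SLC38A2, the SNAT2 carrier of small neutral amino acids, was lower with both ARPi. It was at 675, 664 and 649.9 CPM in DMSO, 365, 361 and 355 CPM with abiraterone and 389.6, 402 and 409.6 CPM with enzalutamide. With olaparib it was at 652, 653 and 635 CPM. The ARPi libraries lay below DMSO (-0.88 ± 0.026 and -0.73 ± 0.026, adjusted p = 3.19e-25 and 7.03e-23), and olaparib overlapped DMSO. Neither olaparib (-0.036 ± 0.026, adjusted p = 0.302) nor talazoparib (-0.062 ± 0.026, adjusted p = 0.0575), whose libraries lay just below DMSO, passed the test. It was the member with the largest called change with enzalutamide. SLC7A5 and SLC3A2, which together form the large neutral amino acid exchanger, were lower with olaparib (-0.72 and -0.41) and abiraterone (-0.61 and -0.27). The arginine and lysine carrier SLC7A1 changed by -0.52 and -0.69.

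All 12 member synthetases were lower with olaparib and 11 with talazoparib (medians -0.44 and -0.31). With abiraterone 11 were lower (-0.55), and with enzalutamide 9 were lower and 2 (AARS1 and TARS1) higher (-0.11). Of all genes 16%, 15.4% and 27.1% were lower with olaparib, talazoparib and abiraterone, and 26.3% were lower and 27% higher with enzalutamide. CARS1 (cysteine) and GARS1 (glycine) changed most with olaparib, by -0.72 ± 0.041 and -0.71 ± 0.032 (adjusted p = 6.08e-16 and 1.86e-18). LARS1 (leucine) changed least, by -0.13 ± 0.024 (adjusted p = 6.45e-05), and was the member synthetase that did not pass with talazoparib (-0.05 ± 0.024). TARS1 (threonine) was the one that did not pass with abiraterone (0.0012 ± 0.024). MARS1 (methionine) changed by -0.51, EPRS1 (glutamate and proline) by -0.46, YARS1 (tyrosine) by -0.47 and WARS1 (tryptophan) by -0.25 with olaparib. AARS1 (alanine) changed by -0.34, IARS1 (isoleucine) by -0.41, NARS1 (asparagine) by -0.31 and SARS1 (serine) by -0.47.

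The other cytosolic synthetases and the scaffolds of the multi-synthetase complex, 11 genes not on the list, gave other counts. With abiraterone and with enzalutamide 11 and 11 of 11 were lower (medians -0.34 and -0.33), whereas with olaparib 3 were lower and 1 higher (-0.036), and with talazoparib 4 lower and 2 higher (0.0015). Between enzalutamide and abiraterone 12 of the 12 member synthetases were higher and 0 lower with enzalutamide, and of the 11 others 0 were higher and 1 lower, against 9.78% higher and 10.1% lower of all genes, so the counts of the others are near those of all genes. The phenylalanine synthetase subunit FARSB was lower with abiraterone (-0.40) and had a value of -0.071 with olaparib that did not pass. VARS1 (valine) gave -0.37 and, not passing, -0.016. The scaffold EEF1E1 was lower with both (-0.38 and -0.26). Of 17 mitochondrial synthetases 9 were lower and 2 higher after abiraterone (median -0.17), 9 and 2 after enzalutamide (-0.17), 4 and 4 after olaparib (0.0061), and 3 and 4 after talazoparib (-0.032). For these counts and those of the other cytosolic genes, the shares of all genes lower and higher were 27.1% and 25.8% with abiraterone, 26.3% and 27% with enzalutamide, 16% and 19.6% with olaparib and 15.4% and 18.4% with talazoparib, so the mitochondrial counts with the PARPi are near those of all genes. MARS2 (-0.95) and IARS2 (-0.44) were lower with enzalutamide, and MARS2 was higher with olaparib (0.16). The member synthetases were chosen with earlier results of these data known, so the contrast between the lists is a description.

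**Figure D3:**
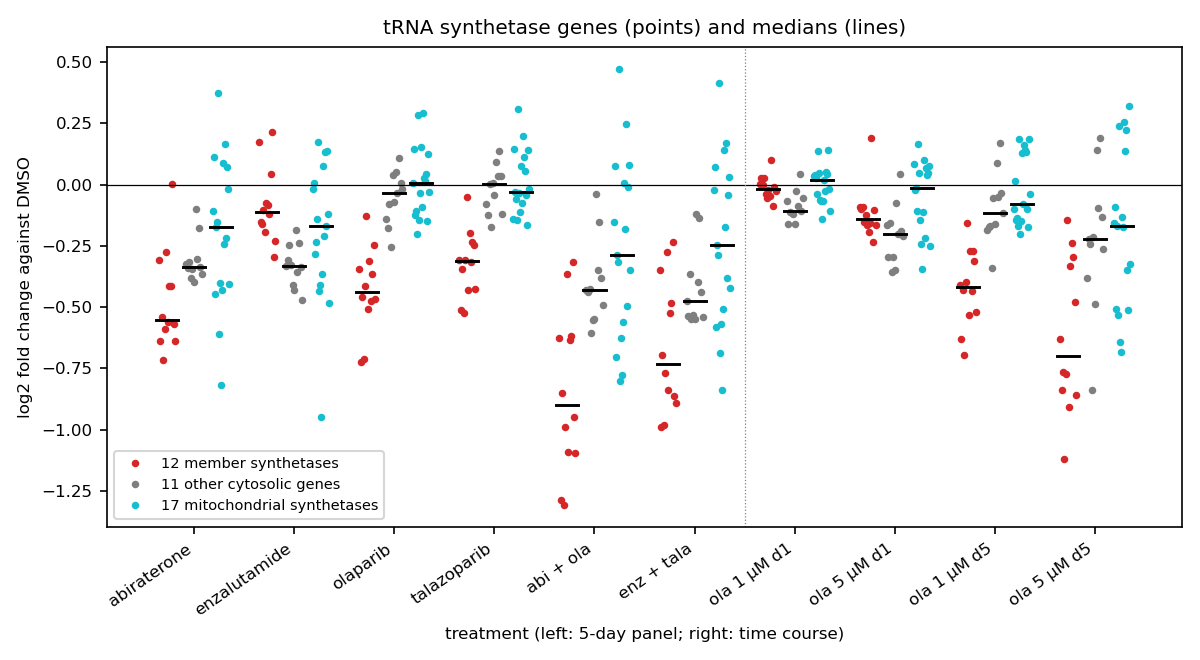
Log2 fold change against DMSO of 12 member synthetases (red), 11 other cytosolic synthetases and scaffolds (grey) and 17 mitochondrial synthetases (cyan), with a line at each median, in the 6 panel and 4 time course comparisons. With olaparib the red median is -0.44 and the grey and cyan medians are -0.036 and 0.0061, while with enzalutamide the grey median (-0.33) lies below the red (-0.11).

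Among 22 further genes known as ATF4 targets, 16 were lower and 4 higher with olaparib (median -0.50), 19 and 3 with abiraterone (-0.62) and 11 and 9 with enzalutamide (-0.13). SLC7A11, the cystine importer, was lower with olaparib (-1.64 ± 0.071) and abiraterone (-0.97 ± 0.068) and higher with enzalutamide (0.19 ± 0.065, adjusted p = 0.025). NIBAN1, a stress-induced protein, was lower with olaparib (-1.62 ± 0.13), and KLHL24 was higher with olaparib (0.87 ± 0.088), abiraterone (0.96 ± 0.088) and enzalutamide (0.77 ± 0.088). Upstream of ATF4, 18 genes were listed for the eIF2 step, among them eIF2 kinases, eIF2 and eIF2B subunits and eIF2 phosphatase genes. They gave 3 lower and 4 higher with olaparib (0.047) and 11 and 13 lower with abiraterone and enzalutamide (-0.20 and -0.17). The shares of all genes, for this list and the others here, were 16% lower and 19.6% higher with olaparib, 27.1% and 25.8% with abiraterone and 26.3% and 27% with enzalutamide, so the eIF2 counts with olaparib are near those of all genes. The eIF2 phosphatase subunit PPP1R15B was lower with abiraterone (-0.58) and did not pass with olaparib (-0.0014, adjusted p = 0.984), while EIF2S2 (-0.41) and EIF2B3 (-0.15) were lower with olaparib. Of 12 endoplasmic reticulum chaperones and targets of XBP1 and ATF6, 12 and 11 were lower with abiraterone and enzalutamide (medians -0.47 and -0.31) and 1 with olaparib (0.013). That gene was XBP1 (-0.47). SDF2L1 (-0.74) and DNAJB9 (-0.59) were lower with enzalutamide.

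Whether a combination departed from the sum of its drugs was tested as an interaction on the log2 scale, where a value below 0 means a lower level than the sum. With enzalutamide and talazoparib 27 of 40 members were below 0 and 0 above, against 7.28% and 5.32% of all genes, with a median of -0.22. All 12 member synthetases were among them (-0.22), and 1 of the 11 other cytosolic genes was (-0.078). With abiraterone and olaparib 1 member (SLC38A2, -0.11 ± 0.037) was below 0 and 12 were above, against 8.08% and 4.74%, with a median of 0.10. ATF4 gave -0.23 ± 0.039 (adjusted p = 0.000108) in the former and 0.22 ± 0.039 (adjusted p = 0.000191) in the latter. For enzalutamide with talazoparib the interaction was -0.85 ± 0.099 in CTH (adjusted p = 2.27e-07), -0.54 ± 0.14 in DDIT4 (adjusted p = 0.0187) and -0.50 ± 0.087 in ASNS (adjusted p = 0.00123). For abiraterone with olaparib it was 0.42 ± 0.066 in PSAT1 (adjusted p = 0.000294) and 0.41 ± 0.099 in SLC1A4 (adjusted p = 0.00403). CHAC1 passed in neither (-0.16 ± 0.17 and 0.14 ± 0.20). The pairs differ in both drugs, and the difference between the interactions was not tested.

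**Figure D4:**
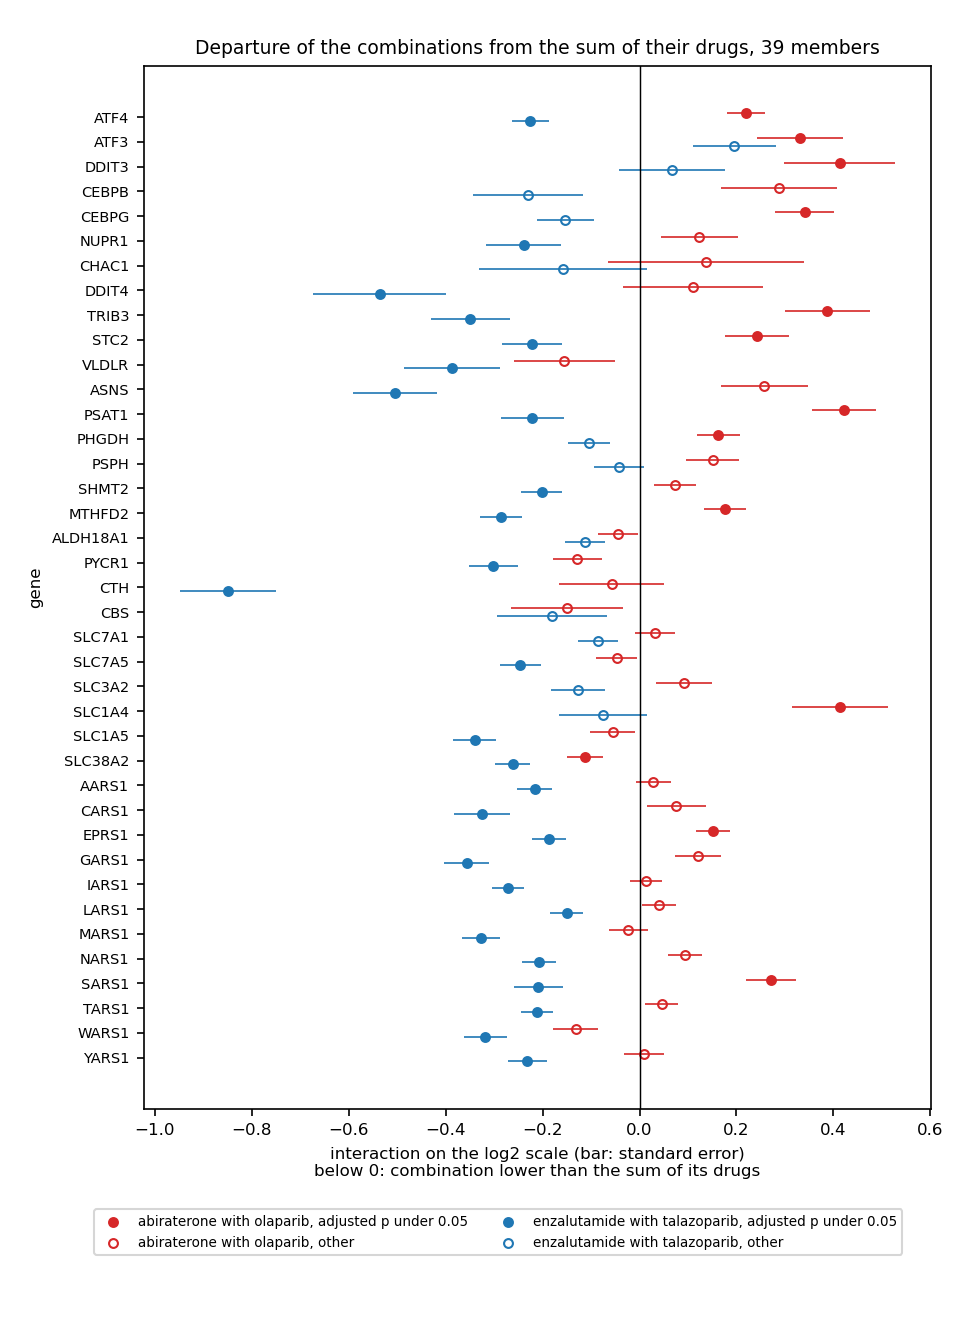
Interaction on the log2 scale with its standard error for 39 members (rows) in abiraterone with olaparib (red) and enzalutamide with talazoparib (blue), filled where the adjusted p is under 0.05. The filled blue points all lie below 0, and the filled red points lie above 0 except SLC38A2.

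The time course asked when the change appears and whether it grows with dose. At day 1, 1 µM olaparib lowered 3 members (CEBPG, ALDH18A1 and TARS1) and raised 11, against 9.52% and 6.30% of the 18502 genes tested, with a median of 0.012. That count fell to 9 in all without replicate 3 of 1 µM olaparib at day 1, and the split was 6 lower and 7 higher without DMSO replicate 2 and 5 lower and 9 higher with DESeq2. At 5 µM, 25 were lower and 8 higher at day 1, against 23.4% and 21.6% (-0.12), or 19 and 11 with total count scaling. At day 5, 1 µM lowered 37 and raised 2 (VLDLR and SLC38A2), with 15 lower by at least 1.5-fold, against 22.9%, 23.4% and 2.88% (-0.46). Without FGF21, whose counts there are too few for a fold, 36 were lower and 14 by at least 1.5-fold. At 5 µM, 35 were lower and 5 higher (ATF3, DDIT4, VLDLR, SLC38A2 and CBS), with 24 lower by at least 1.5-fold, against 33.9%, 34.4% and 14.3% (-0.76), or 34 and 23 without FGF21.

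**Figure D5:**
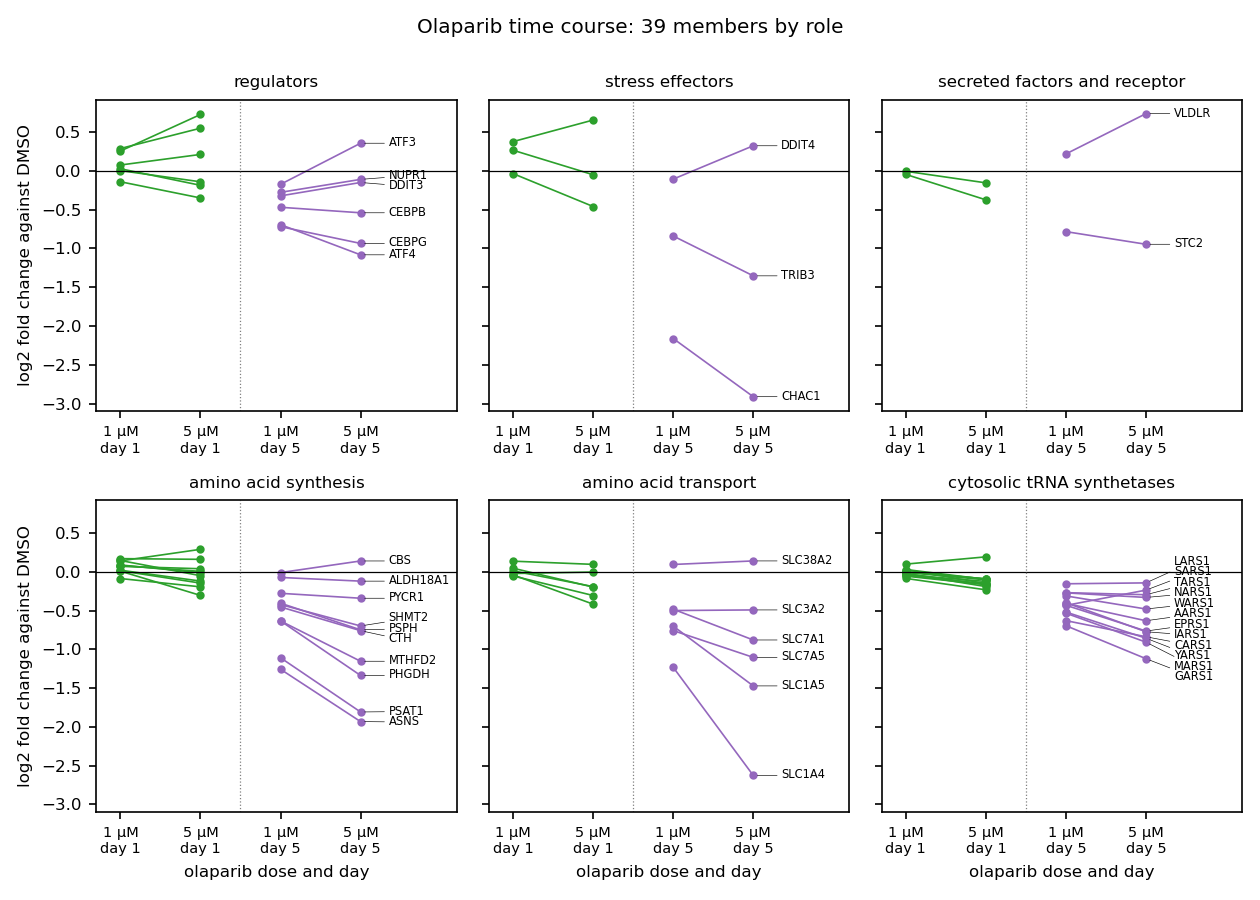
Log2 fold change against DMSO of the same day for 39 members by role, at 1 µM and 5 µM olaparib on day 1 (green) and day 5 (purple), with lines joining the doses of a gene. The day 1 values lie between -0.46 and 0.73, and most day 5 values lie below 0, with CHAC1 (-2.91) and SLC1A4 (-2.63) lowest at 5 µM.

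ATF4 was at 401, 411 and 409.7 CPM in day 1 DMSO, 411, 414 and 420.0 CPM with 1 µM and 365, 351 and 359 CPM with 5 µM. The 1 µM range met that of DMSO, and the 5 µM libraries lay below both. At day 5 it was at 466, 466 and 482 CPM in DMSO, 292, 292 and 289.9 CPM with 1 µM and 220.4, 226 and 221 CPM with 5 µM, with no overlap between the 3 groups. The log2 fold changes were 0.027 ± 0.02 and -0.19 ± 0.02 at day 1 and -0.69 ± 0.02 and -1.08 ± 0.02 at day 5 (adjusted p = 0.403, 6.66e-10, 8.02e-26 and 3.47e-33). Between doses at day 5 the change was -0.39 ± 0.02 (adjusted p = 1.1e-18).

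CHAC1 was at 7.25, 7.05 and 7.30 CPM in day 1 DMSO and 8.31, 8.48 and 9.17 CPM with 1 µM, where every library was above DMSO (0.27 ± 0.085, adjusted p = 0.0276). That day 1 call was lost without 1 of the DMSO libraries, whichever it was, and without replicate 3 of the treated group (adjusted p = 0.0642, 0.0806, 0.0545 and 0.141). With 5 µM at day 1 CHAC1 was at 6.94, 7.13 and 6.79 CPM, which overlapped DMSO and did not pass (-0.05 ± 0.087, adjusted p = 0.685). At day 5 CHAC1 was at 8.84, 9.75 and 9.16 CPM in DMSO, 1.85, 2.38 and 1.95 CPM with 1 µM and 1.12, 1.46 and 1.10 CPM with 5 µM. It was 4.47-fold and 7.52-fold lower, with no overlap (-2.16 ± 0.10 and -2.91 ± 0.11, adjusted p = 8.98e-20 and 1.88e-23).

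ASNS was at 313, 322 and 315 CPM in day 5 DMSO, 134.8, 131 and 131 CPM with 1 µM and 80.0, 85.5 and 83.3 CPM with 5 µM, which is 2.39-fold and 3.82-fold lower (-1.26 ± 0.024 and -1.93 ± 0.024, adjusted p = 2.77e-31 and 3.02e-38). At day 1 it was higher at both doses (0.17 ± 0.023 and 0.16 ± 0.023, adjusted p = 9.72e-07 and 2.97e-07). SLC1A4 was at 25.7, 26.8 and 27.9 CPM in day 5 DMSO, 12.2, 10.8 and 11.2 CPM with 1 µM and 4.23, 4.13 and 4.64 CPM with 5 µM. The groups did not overlap, and SLC1A4 was 2.35-fold and 6.17-fold lower (-1.23 ± 0.051 and -2.63 ± 0.061, adjusted p = 3.17e-21 and 4.31e-30).

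Among the members with a mean of at least 100 counts, DDIT4, NUPR1 and ATF3 had the largest rises at day 1 with 5 µM. FGF21 is among the 8 called higher there, but in the time course it reached 10 counts in 3 libraries, all of olaparib at day 1, so nothing is read from that call and 7 are left without it. DDIT4 was at 41.7, 40.8 and 40.3 CPM in DMSO, 50.3, 51.8 and 57.4 CPM with 1 µM and 64.7, 62.5 and 66.3 CPM with 5 µM, with no overlap (0.38 ± 0.042 and 0.66 ± 0.041, adjusted p = 1.73e-07 and 1.59e-13). NUPR1 was at 65.3, 59.8 and 63.9 CPM in DMSO, 74.9, 74.6 and 81.1 CPM with 1 µM and 92.2, 94.3 and 89.98 CPM with 5 µM, again with no overlap (0.29 ± 0.035 and 0.55 ± 0.035, adjusted p = 1.62e-07 and 1.71e-15). ATF3 was at 16.7, 18.8 and 16.4 CPM in DMSO and 28.7, 28.4 and 29.0 CPM with 5 µM (0.73 ± 0.052, 1.66-fold higher, adjusted p = 2.73e-14). By day 5 NUPR1 was lower at both doses (-0.28 and -0.11), while DDIT4 and ATF3 were lower at 1 µM (-0.11 and -0.17) and higher at 5 µM (0.32 and 0.36). DDIT4 also rose in DMSO itself between the days (1.17 ± 0.04, adjusted p = 4.96e-18). In DMSO 1 member (SLC3A2) was lower and 19 higher at day 5 than at day 1, against 13.4% and 11.1%, with a median of 0.057.

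Between the doses at day 5, 26 members were lower at 5 µM and 7 higher, against 27% and 26.6% (-0.22). SLC1A4 changed by a further -1.39 ± 0.071 on the log2 scale at 5 µM (adjusted p = 6.17e-19), SLC1A5 by -0.77 ± 0.026 and PHGDH by -0.70 ± 0.021. SARS1 was higher at 5 µM than at 1 µM (0.20 ± 0.025), and VLDLR was too (0.52 ± 0.056, adjusted p = 3.91e-10). The olaparib effect differed between the days in most members: at 1 µM 37 had a lower value at day 5 than at day 1 and 2 a higher one, against 14.2% and 15.6%, and at 5 µM 35 and 2, against 27.7% and 27.2%. The medians of this difference were -0.50 and -0.65. FGF21, which reached 10 counts in the time course only with olaparib at day 1, is among the 37 and the 35. Without it, 36 and 34 had a lower value and 2 and 2 a higher one. FGF21 counts were 6, 5 and 3 in day 1 DMSO, 12, 7 and 12 with 1 µM and 9, 9 and 19 with 5 µM. At day 5 they were 1, 8 and 3 in DMSO, 0, 0 and 0 with 1 µM and 1, 0 and 0 with 5 µM, too few for a fold.

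By role at day 5, 12 of 12 synthetases were lower at 1 µM and 12 at 5 µM (medians -0.42 and -0.70), beside 6 and 9 of the 11 other cytosolic genes (-0.12 and -0.22). Of those 11, 2 and 2 were higher. The lower shares of the 11 (54.5% and 81.8%) also lay above those of all genes (22.9% and 33.9%). At day 1 the member synthetases gave 1 lower at 1 µM and 11 at 5 µM (-0.016 and -0.14), and the others 7 and 10 (-0.11 and -0.20), where 9.52% and 23.4% of all genes were lower. The further ATF4 targets at day 1 gave 3 of 22 lower and 9 higher at 1 µM (0.077), against 9.52% and 6.30% of all genes. With 5 µM at day 1, 7 were lower and 8 higher (0.039), against 23.4% and 21.6%. At day 5 these targets gave 14 of 22 lower and 6 higher at 1 µM (-0.54), where 22.9% and 23.4% of all genes were lower and higher. At 5 µM they gave 14 lower and 7 higher (-0.93), against 33.9% and 34.4%, with NIBAN1 at -3.24, SLC7A11 at -1.89 and KLHL24 at 2.22 with 5 µM. The 18 genes listed for the eIF2 step gave 7 lower and 10 higher with 5 µM at day 5 (0.07), against 33.9% and 34.4% of all genes.

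Olaparib at 1 µM for 5 days was given in both experiments, which share no libraries. Of the members 34 were lower in the panel and 37 in the time course, and 34 were lower in both (100% and 91.9% of each count). Over all 17960 genes tested in both, 2519 were lower in both, which is 84.8% of those lower in the panel and 59.6% of those lower in the time course. Across the 40 members the log2 fold changes correlated with r = 0.949, and across all genes with r = 0.494. FGF21 is among the 40 and has the lowest value in both experiments. Its counts with olaparib were 1, 3 and 3 in the panel and 0, 0 and 0 in the time course. The r without it was not computed, so how far 0.949 rests on it was not tested. Without FGF21, 33 members were lower in the panel and 36 in the time course. These are correlations across genes, which are not independent replicates, and they carry no test. The median change was -0.48 and -0.46 in the 2 experiments. CHAC1 gave -1.70 and -2.16, ASNS -1.24 and -1.26, ATF4 -0.72 and -0.69, and SLC1A4 -1.17 and -1.23 in panel and time course.

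Members with and without the promoter core are set side by side as a description. With olaparib 15 of 16 members with a core and 13 of 18 with a window and no core were lower (medians -0.60 and -0.51), where 16% of all genes were lower. With enzalutamide 8 and 8 were lower and 3 and 3 higher (-0.093 and -0.087), against 26.3% and 27% of all genes. ATF3, which holds a core, was the exception with olaparib, and PSAT1 and TRIB3 were lower without one in their windows. Among 318 genes tested that hold a core and are not members, 85 were lower and 56 higher with olaparib (median -0.043), beside 16% and 19.6% of all genes.

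Per length of exon, PSAT1 (227 CPM per kilobase) and ATF4 (204) were the most abundant members in panel DMSO, ASNS (82.1) ranked 7 and CHAC1 (5.74) ranked 36. The length is the union of all annotated exons of a gene, whichever transcript is expressed, so the ranks depend on the annotation. IARS1, at a mean of 655 CPM and with 22418 such bases, ranked 19. Over the 7 panel groups, the genes whose mean log2 level tracked ATF4 most closely among 17959 were SIAH2, EIF5, ANP32A, ASNS and MRPL52 (Pearson r between 0.9949 and 0.9977). For CHAC1, added after the data were seen because FGF21 has too few counts for such a comparison, they were SLC7A5, SF3A3, PSPH, TMEM209 and LSM2 (r between 0.9914 and 0.9964). These correlations rest on 7 group means that share libraries' scaling, and they carry no test.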

How the data were processed

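RNA of C4-2B cells was sequenced in 39 libraries of 13 groups, 3 a group. The authors used Trim Galore for trimming, STAR for alignment (GRCh38) and Salmon for quantification per gene, and deposited one table of estimated counts as whole numbers. How they were rounded and the strand setting of the counting are not given in the sources used here. Groups and replicates came from the labels. Here each experiment was fitted once over all its groups by the robust quasi-likelihood test of edgeR (4.0.16, under R 4.3.3) after filterByExpr by group and TMM, and p-values were adjusted by Benjamini-Hochberg over all 18625 (panel) or 18502 (time course) genes tested, so that an adjusted p under 0.05 counts as called. SE is the log2 fold change divided by the square root of F, levels are TMM-scaled CPM, and interactions are on the log2 scale. Totals were 26932205 to 49833473 counts a library, and 62666 of 63187 gene IDs were paired with a symbol. Promoter windows came from RefSeq (GRCh38.p14) and exon lengths from a GENCODE release other than the one the authors name for quantification. The members and the other gene lists were chosen with earlier results of these data known. ATF4 and, in each comparison with DMSO, the 3 members with the largest called change whose higher group averaged 100 counts or more are given for every library, and genes like CHAC1 in pattern were added after the data were seen. The alternatives were RLE and total count scaling, no filter, a filter of 10 counts in 3 libraries, DESeq2 1.42.0, a fit of only the groups compared, a replicate block and leaving out each library. The code was tested on simulated data.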

Additional observations from a re-analysis of the deposited data

Results flagged for a closer look

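Each interaction was looked at here for ATF4 and for the members with the 3 largest called changes in the comparisons with DMSO that it joins (26 values, edgeR's quasi-likelihood test, log2 scale with SE). Members picked for large changes in those comparisons are favoured to pass, so the number that did (20) is not a result, and the values are a description. The effect of 1 µM olaparib differed between day 5 and day 1 for ATF4 (-0.72 ± 0.028, adjusted p = 2.95e-21), DDIT4 (-0.48 ± 0.056, adjusted p = 7.9e-08), NUPR1 (-0.57 ± 0.049, adjusted p = 2.35e-11), CHAC1 (-2.43 ± 0.13, adjusted p = 5.41e-17), ASNS (-1.43 ± 0.033, adjusted p = 5.99e-28) and SLC1A4 (-1.37 ± 0.068, adjusted p = 4.15e-18). The effect of 5 µM olaparib differed between the days for ATF4 (-0.90 ± 0.028, adjusted p = 1.95e-25), ATF3 (-0.37 ± 0.075, adjusted p = 6.46e-05), DDIT4 (-0.33 ± 0.055, adjusted p = 8.83e-06), NUPR1 (-0.66 ± 0.049, adjusted p = 6.56e-14), CHAC1 (-2.86 ± 0.14, adjusted p = 3.14e-19), SLC1A4 (-2.72 ± 0.078, adjusted p = 9.85e-27) and ASNS (-2.09 ± 0.033, adjusted p = 6.49e-34). For DDIT4 and ATF3 at 5 µM the effect was above 0 on both days and smaller at day 5.

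The effect of olaparib differed with and without abiraterone for ATF4 (0.22 ± 0.039, adjusted p = 0.000191), TRIB3 (0.39 ± 0.087, adjusted p = 0.00283) and SLC1A4 (0.41 ± 0.099, adjusted p = 0.00403). The effect of talazoparib differed with and without enzalutamide for ATF4 (-0.23 ± 0.039, adjusted p = 0.000108), SLC38A2 (-0.26 ± 0.036, adjusted p = 4.16e-06), SLC1A5 (-0.34 ± 0.044, adjusted p = 1.36e-06) and TRIB3 (-0.35 ± 0.081, adjusted p = 0.00406). The 6 that did not pass were ASNS (0.26), CHAC1 (0.14) and SLC1A5 (-0.056) for abiraterone with olaparib and CHAC1 (-0.16), PHGDH (-0.10) and SLC1A4 (-0.076) for enzalutamide with talazoparib. The values that passed for abiraterone lie above the sum of the single effects and those for enzalutamide below it.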

How the results depend on the processing

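Of 284 totals of called members (lower and higher together) recomputed under the alternatives, 283 stayed within 1.5 times the reported total. The exception was 1 µM olaparib at day 1, where 14 became 9 without replicate 3 of the treated group (leave-one-out range 9 to 13). The split into lower and higher was not part of that criterion, and in that comparison it moved further, as given above. No recomputed median of the members and no recomputed value of a single member against DMSO changed direction. Medians were recomputed with RLE scaling, total count scaling, no filter and the replicate block. The totals of called members carry no direction, and interactions of single members were not recomputed. The median of the members moved by more than the spread between replicates in 16 of 80 cases, 15 of them with total count scaling. ATF4 with enzalutamide no longer passed in 4 alternatives (adjusted p from 0.0704 to 0.316), and CHAC1 with 1 µM olaparib at day 1 in 4 leave-one-out fits (0.0545 to 0.141); the causes were not tested. Total count scaling moved the split with enzalutamide to 13 lower and 10 higher, and with 5 µM olaparib at day 1 to 19 and 11. It moved the median of all genes by over 0.1 in 1 comparison, the difference of the 5 µM effect between days (-0.153 against -0.0223).

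Same-numbered replicates deviated from their group means with correlations of -0.0814 to 0.0726 in the panel and -0.132 to 0.127 in the time course, so the numbers were not taken to pair the samples. With the replicate block the called members were 26 lower for the enzalutamide and talazoparib interaction, 19 lower and 8 higher with enzalutamide, and 1 lower and 15 higher between talazoparib and olaparib, and as reported in the other comparisons. In the panel 7 of 21 libraries and in the time course 2 of 18 correlated best with their own number.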
